A study of Ginkgo biloba with 9 samples.

Results

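The most abundant leaf transcripts of Ginkgo biloba were the genes with a mean level of at least 1000 FPKM (fragments divided by gene length in kilobases and by library size) over all 9 libraries. By this rule 113 of the 41309 listed genes were members, and all 113 were among the 19854 genes that passed the filter on low values and were tested. The mean level over all libraries chose the members, so their levels are given as a description with no test. In 22 members the level lay below 1000 FPKM in at least 1 density, so these reached the mean through the densities where they were high, and their differences between planting densities are not independent of the choice. Just inside the threshold lay Gb_32468 and Gb_08131 with means of 1034 and 1032 FPKM, and just outside it Gb_29773 and Gb_41630 with 981 and 958 FPKM.

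RNA sequencing compared leaves of the cultivar 'Fozhi' in 2-year-old trees of a nursery kept for leaf harvest, planted at 20 (CK, the control density), 40 (MD) or 80 (HD) plants per square metre. Each density had 3 libraries, numbered 1 to 3 in the sample titles. All groups shared the cultivar, the age, the nursery, the TaKaRa MiniBEST RNA kit and standard Illumina library preparation. The labels leave unsaid whether the replicates of a density were separate trees or pooled leaves, so every p-value measures the spread between libraries alone, which may be technical.

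In leaves of seed plants in general, a small set of genes supplies a large part of the messenger RNA, and proteins of photosynthesis such as the small subunit of Rubisco, which fixes carbon dioxide, and the chlorophyll a/b-binding proteins, which gather light, are known for high transcript levels. Close planting shades lower leaves and changes the ratio of red to far-red light, and many genes of photosynthesis are known to respond to light. The identifiers in the deposited table stand without gene names, so which members encode such proteins, and whether the samples carry leaf markers, was not analysed here. For the same reason no role is given for any member, and it is not known which members share reads with near-identical copies. In bulk leaf RNA, fewer cells of a type and less RNA per cell cannot be told apart.

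The libraries held 14708816 to 22454521 reads in genes (recovered from the step sizes of FPKM), and each member had between 2884 and 370146 reads in a library. Libraries numbered 3 stood apart in the members: library 3 had the lowest level of its density in all 3 densities for 30 members and the highest for 17, together 41.6% of members, against 11.2% of all tested genes. The corresponding shares of members were 5.31% for libraries numbered 1 and 8.85% for libraries numbered 2. Without the 3 libraries numbered 3, chosen after seeing the data, the calls among members were 34 up and 55 down for MD against CK, 21 up and 74 down for HD against CK, and 31 up and 65 down for HD against MD, close to the counts over all libraries given with each comparison.

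Levels among the members spanned a wide range. Gb_26428 was the most abundant transcript, with a mean of 32345 FPKM, followed by Gb_06050 with 24202 and Gb_14539 with 16557 FPKM. The median member stood at 2185 FPKM in CK, 2182 FPKM in MD and 1926 FPKM in HD. Of all genes, 91 had a mean of at least 1000 FPKM in every density, and 8 members in CK, 6 in MD and 15 in HD lay below 1000 FPKM. The top 10 of every density had 5 genes in common. Gb_26428 ranked 1, 1 and 2 in CK, MD and HD, whereas Gb_41780 ranked 8, 8 and 69.

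**Figure D1:**
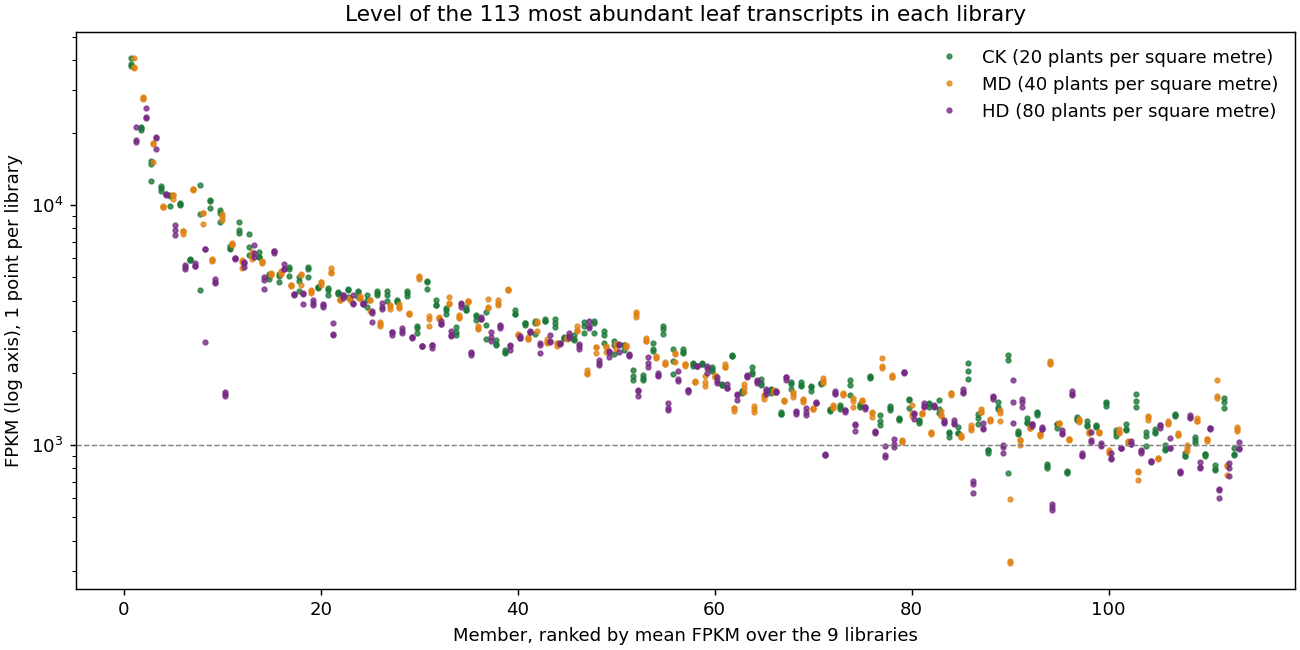
Level of each of the 113 members in each of the 9 libraries (vertical axis, FPKM, logarithmic), with members ordered by their mean over all libraries (horizontal axis) and 1 point per library, coloured by density. The dashed line marks 1000 FPKM. HD points stand well below the others at rank 1 (Gb_26428) and rank 10 (Gb_41780), and MD points lie lowest at rank 90 (Gb_41807).

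The share of reads taken by the members together was lower in each HD library than in any library of the other densities. They took 28.3%, 28.3% and 27.5% of the reads in genes in the CK libraries, 28.7%, 28.7% and 28.4% in the MD libraries and 26.4%, 26.5% and 26.2% in the HD libraries. MD lay above every CK library. The difference was -1.67 percentage points for HD minus CK, -2.24 points for HD minus MD and 0.569 points for MD minus CK. No pair of densities overlapped, and each exact two-sided permutation test gave p = 0.1, the smallest that 3 against 3 libraries allow. The share of summed FPKM, which weighs short genes more than the share of reads does, was 33.1% ± 0.156 in HD and 36.6% ± 0.422 in CK (SD, n = 3 each), a difference of -3.55 points. MD had 36.8% ± 0.0885 (SD, n = 3), and here MD and CK overlapped (exact permutation p = 0.6).

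The lower sum in HD was spread over many members but weighted to a few. Mean FPKM was lower in HD than in CK for 88 members, with differences that summed to -86294 FPKM, and higher for 25 members, with a sum of 16354 FPKM. Gb_26428 alone held 22.8% of the summed decreases, and the 4 largest decreases held 43.0%. The summed FPKM of the members differed by -13.9% between HD and CK without Gb_26428, against -17.5% with it, and by -9.71% with all members after scaling to TPM (FPKM rescaled to the same sum in every library). For all genes that were no members the difference was -3.48% with the authors' scaling and 5.60% after scaling to TPM. As TPM fixes the sum of each library, the 5.60% follows from the members' -9.71% and is no separate result. The largest additions in HD came from Gb_14539 (4204 FPKM) and Gb_06050 (3091 FPKM).

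Between MD and CK, the summed level differed by less than the spread between libraries while single members were called in both directions. The sum was 398880 ± 1345 FPKM in MD and 400021 ± 7778 FPKM in CK (SD, n = 3 each; exact permutation p = 1), a difference of -0.285% whose sign turned under scaling to TPM, total reads or quantiles. Quantile normalization nearly fixes a sum over the most abundant genes, so a turn of sign under it carries little meaning. Behind the difference, 64 members were lower in MD, with a sum of -36206 FPKM, and 49 were higher, with a sum of 35065 FPKM. The largest additions in MD were in Gb_06050 (7058 FPKM) and Gb_34668 (5742 FPKM), and the largest decrease was in Gb_11196 (-4311 FPKM), which is named for this value, after it was seen.

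**Figure D2:**
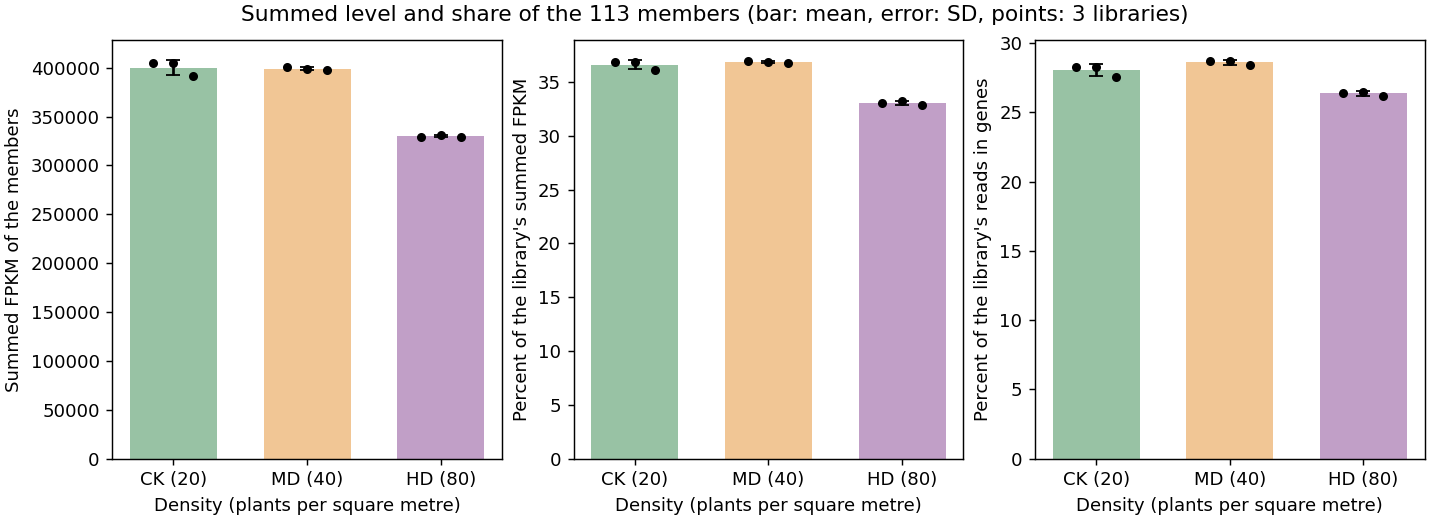
Summed FPKM of the 113 members (left), their percentage of the library's summed FPKM (middle) and their percentage of the reads in genes (right), by planting density; bars are means, error bars SD and points the 3 libraries. All 3 HD libraries lie below the CK and MD libraries in each panel. For the summed FPKM, the difference of HD against CK of -17.5% is -9.71% with each library scaled to TPM. After quantile normalization it is -0.284%, but that setting gives every library the same values. It nearly fixes a sum over the most abundant genes and is no check on this difference.

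Between HD and CK, the densities farthest apart, most members were lower with the authors' scaling. Of the 113 members 93 were called (82.3%), against 52.0% of all tested genes, with a call meaning a limma Benjamini-Hochberg adjusted p under 0.05. Lower levels in HD were called for 73 members, against 26.6% of all tested genes, and higher levels for 20, against 25.4%, a split that turned to 37 lower and 44 higher after quantile normalization, which by construction gives every library the same set of values. Scaling to TPM gave 53 lower and 37 higher members and moved the median of all genes to 0.115 on the log2 scale. Scaling by total reads gave 57 and 31. Genes below the members in level were also called often with the authors' scaling. Of 126 genes with means of 500 to 1000 FPKM, 44.4% were called lower and 32.5% higher. For 1423 genes of 100 to 500 FPKM the shares were 48.3% and 29.4%. The median log2 fold change, on the log2(FPKM + 1) scale, was -0.19 over the members, with 0.01 after quantile normalization, and 0.00 over all tested genes. Most changes were small: 6 members were called with at least a 2-fold change (5.31%), against 5.75% of all tested genes. The median absolute log2 fold change was 0.26 in members and 0.27 in all tested genes. The median standard error was 0.028 in members and 0.097 in all tested genes, and called differences among members were as small as 0.07.

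The largest fall was in Gb_41780. Its level was 8507, 9539.9 and 9286 FPKM in the CK libraries, 9159, 8667 and 8900.0 FPKM in the MD libraries and 1667, 1607 and 1628 FPKM in the HD libraries. The HD libraries stood far below the rest, by 5.58-fold against CK (log2 fold change -2.48, SE 0.04, limma, Benjamini-Hochberg adjusted p = 1.79e-11), and MD and CK overlapped. The most abundant transcript, Gb_26428, also fell: it had 18318, 18680.2 and 21153 FPKM in HD, against 37724, 38494 and 41077 FPKM in CK (log2 fold change -1.01, SE 0.06, limma, Benjamini-Hochberg adjusted p = 1.02e-07). In both densities library 3 was the highest, and without the libraries numbered 3 the log2 fold change was -1.04. The gene took 0.411% to 0.476% of the reads in HD, against 0.791% to 0.876% in CK. It was recovered as a short gene of 216 nt, so its share of summed FPKM was larger, at 1.84% to 2.11% in HD and 3.44% to 3.79% in CK.

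Gb_06117 fell at each step of density. Its level was 2189, 2031 and 1883 FPKM in CK, 1181, 1214 and 1155 FPKM in MD and 690.1, 706 and 631 FPKM in HD, with no overlap. The HD minus CK log2 fold change was -1.59 (SE 0.05, limma adjusted p = 2.8e-09). The other members called at least 2-fold lower were Gb_11196 (-1.08) and Gb_31121 (-1.07), both named outside the rule, because the count is small and after their values were seen. Gb_13756 was the only member called at least 2-fold higher, with 1641, 1617 and 1674 FPKM in HD, against 779, 775 and 767 FPKM in CK (log2 fold change 1.09, SE 0.02, limma, Benjamini-Hochberg adjusted p = 1.11e-10). The next largest rise was in Gb_12860, with 1557, 1579.8 and 1601 FPKM in HD, against 950.3, 958 and 925 FPKM in CK (log2 fold change 0.74, SE 0.02, limma, Benjamini-Hochberg adjusted p = 1.33e-09). The libraries of each density lay close together in both genes, and MD lay between CK and HD. Gb_06117, Gb_13756 and Gb_12860 are among the members below 1000 FPKM in some density.

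Among the 5 members of highest mean level, HD was lower than CK in 3 and higher in the other two with the authors' scaling. Gb_00381 had 7493, 8267 and 7866 FPKM in HD, against 11038, 10909 and 9895 FPKM in CK, with no overlap. Its HD minus CK log2 fold change of -0.43 (SE 0.04, limma adjusted p = 1.29e-05) turned to 0.11 after quantile normalization. There, a value follows its rank within the library alone. Gb_37968 was lower by a small margin, with 11030.2, 11054 and 11099.8 FPKM in HD, against 11967, 11787 and 11437 FPKM in CK. That difference of -0.08 (SE 0.02, limma adjusted p = 0.00474) turned positive under scaling by TPM, total reads and quantiles, and its call was lost without the intensity trend in the variance (adjusted p = 0.140) and without the filter on low values (adjusted p = 0.0670).

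Higher levels were measured in Gb_14539, which had 19035, 19189 and 17030.0 FPKM in HD, against 14858, 15254 and 12531 FPKM in CK. Library 3 was the lowest of its density, in MD as well, but the HD and CK libraries did not overlap. The HD minus CK log2 fold change was 0.38 (SE 0.08, limma adjusted p = 0.00301), and 0.34 without the libraries numbered 3. Gb_06050 had 23299.8, 23063 and 25366 FPKM in HD, against 20427, 20887 and 21141 FPKM in CK (log2 fold change 0.20, SE 0.03, limma, Benjamini-Hochberg adjusted p = 0.000402). It was the most abundant transcript in HD, where Gb_26428 had rank 2.

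**Figure D3:**
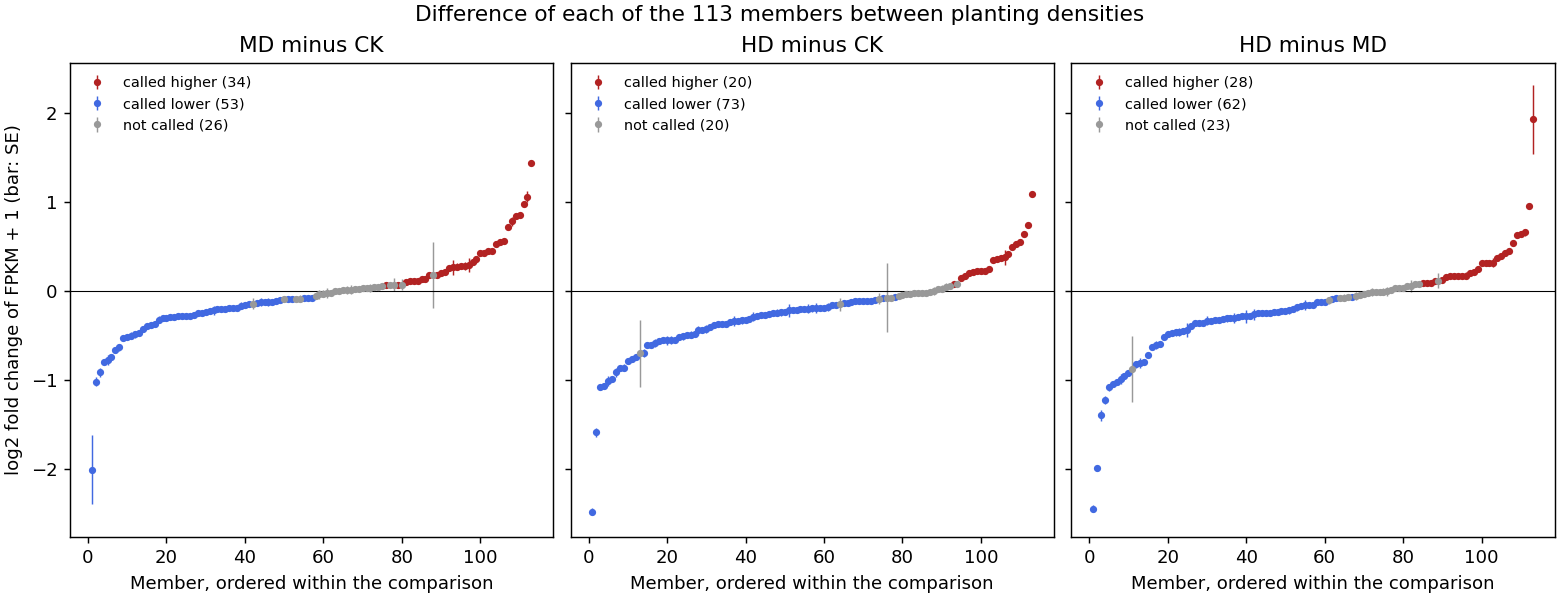
Log2 fold change of FPKM + 1 for each of the 113 members in MD minus CK, HD minus CK and HD minus MD, ordered within each comparison; bars are limma standard errors and colours show calls at an adjusted p under 0.05. Called members number 34 higher and 53 lower in MD minus CK, 20 and 73 in HD minus CK and 28 and 62 in HD minus MD. After quantile normalization the splits were 36 and 40, 44 and 37, and 50 and 38. The HD splits turned, but that setting gives every library the same values.

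The first doubling of density, 40 against 20 plants per square metre, moved members both ways. Of the 113 members 87 were called (77.0%), against 36.7% of all tested genes. There were 53 lower members, against 18.6% of all tested genes, and 34 higher ones, against 18.0%; after quantile normalization they numbered 40 and 36. Of the 126 genes of 500 to 1000 FPKM, 39.7% were called lower and 34.9% higher. For the 1423 genes of 100 to 500 FPKM the shares were 34.7% and 30.4%. The median log2 fold change was -0.08 over the members and -0.00 over all tested genes. At least a 2-fold change was called for 4 members (3.54%), against 3.21% of all tested genes. The median absolute log2 fold change was 0.20 in members and 0.19 in all tested genes, with median standard errors of 0.028 and 0.097.

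Among these 4 members, Gb_27902 had the largest rise, with 2206, 2179 and 2239 FPKM in MD, against 801, 832 and 818 FPKM in CK (log2 fold change 1.43, SE 0.03, limma, Benjamini-Hochberg adjusted p = 8.93e-11). Gb_13268 had 1597, 1569 and 1868 FPKM in MD, against 829, 787 and 797 FPKM in CK (log2 fold change 1.06, SE 0.06, limma, Benjamini-Hochberg adjusted p = 2.84e-07). MD library 3 was the highest of this gene, and the log2 fold change was 0.97 without the libraries numbered 3. In both genes every MD library exceeded every CK library.

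All 4 of these members lay below 1000 FPKM in at least 1 density, so the size of their differences is given as a description. The largest fall was in Gb_41807, which had 596, 329 and 322 FPKM in MD, against 2266, 765 and 2368 FPKM in CK. CK library 2 stood far below the other CK libraries but above every MD library. The log2 fold change was -2.00 (SE 0.39, limma adjusted p = 0.00211), with -2.54 without CK library 2 and -1.57 without the libraries numbered 3. Gb_40200 had 775, 778 and 719 FPKM in MD, against 1637, 1528 and 1437 FPKM in CK (log2 fold change -1.02, SE 0.05, limma, Benjamini-Hochberg adjusted p = 4.92e-08). Its coefficient of variation was 6.56% in CK and 4.38% in MD, above the member medians of 2.60% and 1.60%.

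Of the 5 members of highest mean, 2 were called higher and 1 lower in MD. Gb_06050 had 27757, 27668 and 28206 FPKM in MD, against 20427, 20887 and 21141 FPKM in CK. Its log2 fold change was 0.42 (SE 0.03, limma adjusted p = 3.02e-06), but 0.00 after quantile normalization, as it had rank 2 in both densities. Gb_14539 had 18028, 17939.7 and 15148 FPKM in MD, against 14858, 15254 and 12531 FPKM in CK, and the densities overlapped. Its MD minus CK difference was 0.26 (SE 0.08, limma adjusted p = 0.0302). The call was lost without CK library 3 (0.17, adjusted p = 0.101), without MD library 1 (adjusted p = 0.103) and without MD library 2 (adjusted p = 0.103), and was kept without all libraries numbered 3 (0.26, limma adjusted p = 1.90e-05). It was also lost without the filter on low values (adjusted p = 0.0733) and without the intensity trend (adjusted p = 0.0787). After quantile normalization the difference was 0.00, as Gb_14539 had rank 3 in both densities, so that setting could not show a difference. Gb_37968 was lower, with 9915, 9779.6 and 9824 FPKM in MD, against 11967, 11787 and 11437 FPKM in CK (log2 fold change -0.25, SE 0.02, limma, Benjamini-Hochberg adjusted p = 3.97e-06). For Gb_26428 and Gb_00381 the log2 differences between MD and CK were -0.02 and 0.04, with overlapping libraries and no call.

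For the second doubling, 80 against 40 plants per square metre, 90 members were called (79.6%), against 43.1% of all tested genes. Lower levels in HD were called for 62 members, against 22.6% of all tested genes, and higher levels for 28, against 20.4%. This split turned to 38 lower and 50 higher after quantile normalization. It was 50 and 42 after scaling to TPM, which moved the median of all genes to 0.107. With the authors' scaling, 42.1% of the 126 genes of 500 to 1000 FPKM were called lower and 27.8% higher. For the 1423 genes of 100 to 500 FPKM the shares were 43.5% and 26.5%. The median log2 fold change was -0.16 over the members, with 0.02 after quantile normalization, and 0.01 over all tested genes. Its median absolute value was 0.25 in members and 0.22 in all tested genes, with median standard errors of 0.028 and 0.097. At least a 2-fold change was called for 8 members (7.08%), against 4.41% of all tested genes. Several of these, Gb_27902, Gb_41807 and Gb_13268 among them, lay below 1000 FPKM in at least 1 density. This share and the sizes of their differences are therefore not independent of how the members were chosen. The comparison shares its HD libraries with HD minus CK and its MD libraries with MD minus CK, so the values of the comparisons are not independent of each other.

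Gb_41780 and Gb_27902 had the largest falls. The log2 fold change of Gb_41780 was -2.45 (SE 0.04, limma adjusted p = 2.55e-11). Gb_27902 had 539, 555 and 571 FPKM in HD, against 2206, 2179 and 2239 FPKM in MD (log2 fold change -1.99, SE 0.03, limma, Benjamini-Hochberg adjusted p = 1.17e-11). The HD minus CK difference of Gb_27902 was -0.56 (SE 0.03, limma adjusted p = 4.6e-08). The largest rises were in Gb_41807, with 1236, 1859.6 and 1517 FPKM in HD, against 596, 329 and 322 FPKM in MD (log2 fold change 1.93, SE 0.39, limma, Benjamini-Hochberg adjusted p = 0.00223), and in Gb_30778. Gb_30778 had 2009, 2012 and 2006 FPKM in HD, against 1035, 1042 and 1047 FPKM in MD (log2 fold change 0.95, SE 0.02, limma, Benjamini-Hochberg adjusted p = 1.82e-10), and its HD libraries lay close together. In Gb_26428 the HD minus MD difference was -0.99 (SE 0.06, limma adjusted p = 1.97e-07). In Gb_00381 it was -0.47 (SE 0.04, limma adjusted p = 1.05e-05), but 0.00 after quantile normalization, as Gb_00381 had rank 5 in both densities.

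Over all 3 densities together, the moderated F test called 108 members (95.6%), against 61.3% of all tested genes. The 5 members not called were Gb_00380, Gb_23731, Gb_00162, Gb_21826 and Gb_40095. Gb_23731, named as 1 of these few after its values were seen, had 6195, 7589 and 6668 FPKM in CK, 6111, 6379 and 5969 FPKM in MD and 6336, 6806 and 6063 FPKM in HD, with overlapping densities. Mean levels were highest in CK for 58 members, in MD for 37 and in HD for 18. They were lowest in CK for 19 members, in MD for 25 and in HD for 69, all with the authors' scaling. Of all tested genes, 34.8%, 27.2% and 38.0% were highest and 35.2%, 27.9% and 36.9% lowest in CK, MD and HD. To order the members further, they were grouped by their calls in the 3 pairwise comparisons; since these share libraries, the group sizes describe the members and were not tested. Each group stands beside the share of all tested genes with the same calls, and nothing is read from the difference. The 5 members without a call in any pair made up 4.42% of members, against 33.4% of all tested genes.

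The largest group, with 21 members (18.6%, against 4.86% of all tested genes), was lower at each doubling, and its summed level was 76417, 60341 and 48836 FPKM in CK, MD and HD. Its most abundant member was Gb_18966, with 9966, 10087 and 10198 FPKM in CK, 7552, 7798 and 7816 FPKM in MD and 5498, 5436 and 5612 FPKM in HD. No libraries of different densities overlapped in this gene, and the HD minus CK log2 fold change was -0.87 (SE 0.02, limma adjusted p = 2.78e-10). The mirror group, higher at each doubling, had 7 members (6.19%, against 3.64%), with summed levels of 9124, 10672 and 12932 FPKM in CK, MD and HD. Gb_04160 led it, with 3089, 2963 and 2869 FPKM in CK, 3472, 3395 and 3405 FPKM in MD and 3878, 3905 and 3776 FPKM in HD. Its HD minus CK log2 fold change was 0.37 (SE 0.03, limma adjusted p = 1.12e-06).

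A group of 15 members (13.3%, against 8.78%), led by Gb_26428 and including Gb_00381 and Gb_41780, had lower HD levels than either other density, with no call between MD and CK. Its summed level was 98028, 97559 and 61934 FPKM in CK, MD and HD, which made it the group with the highest sum. In 12 members (10.6%, against 6.66%) MD and HD were both lower than CK with no call between them. Gb_38595 led these, with 7883, 8477 and 7638 FPKM in CK, 5761, 5927 and 5446 FPKM in MD and 5715, 5787 and 5538 FPKM in HD. Its HD minus CK log2 fold change of -0.49 (SE 0.04, limma adjusted p = 2.25e-06) was -0.10 and not called after quantile normalization (adjusted p = 0.210). Its MD minus CK log2 fold change was -0.49 (SE 0.04, limma adjusted p = 5.6e-06). Its HD minus MD difference of -0.0073 turned to 0.11 under scaling to TPM (limma adjusted p = 0.0370) and to 0.24 after quantile normalization (adjusted p = 0.00895), both called.

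Another 15 members (13.3%, against 1.75%) peaked in MD, and had HD levels below those of CK, with sums of 37680.4, 53164 and 30615 FPKM in CK, MD and HD. Gb_34668 led this group, with 11669, 11578 and 11699 FPKM in MD, against 5877, 5938 and 5905 FPKM in CK (log2 fold change 0.98, SE 0.02, limma, Benjamini-Hochberg adjusted p = 8.93e-11). In HD it had 5585, 5588 and 5746 FPKM, and its HD minus MD difference was -1.05 (SE 0.02, limma adjusted p = 5.14e-11). The HD minus CK difference was -0.07 (SE 0.02, limma adjusted p = 0.0117), turned positive under scaling by TPM, total reads and quantiles, and was not called without HD library 1 (-0.06, adjusted p = 0.0527), without the filter on low values (adjusted p = 0.0994) or without the intensity trend (adjusted p = 0.223). In 7 members (6.19%, against 3.72%) MD was higher than CK and than HD with no call between HD and CK. Gb_00391 led them, with 2757, 3152 and 3597 FPKM in CK, 3720.2, 3772 and 4071 FPKM in MD and 2830.0, 2714 and 2962 FPKM in HD. Its MD minus CK difference was 0.29 (SE 0.08, limma adjusted p = 0.0135). This call was lost without MD library 3 (0.25, adjusted p = 0.0535), and without CK library 1 HD was called lower than CK (-0.25, adjusted p = 0.00613), as it was with limma-voom on recovered reads (-0.15, adjusted p = 0.00394). Its HD minus CK difference of -0.15 turned to 0.14 after quantile normalization. Its HD minus MD difference was -0.44 (SE 0.08, limma adjusted p = 0.000925), and -0.15 and not called after quantile normalization (adjusted p = 0.171).

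The reverse shape, lowest in MD, was found in 8 members (7.08%, against 1.14%) that were lower in HD than in CK as well, led by Gb_37968, and in 6 members (5.31%, against 2.87%) with no call between HD and CK. Gb_27252 led the 6 members, with 3126, 3053 and 3085 FPKM in MD, against 3333, 3447 and 3487 FPKM in CK (log2 fold change -0.15, SE 0.02, limma, Benjamini-Hochberg adjusted p = 0.000458). In HD it had 3341, 3357 and 3410.1 FPKM, above MD by 0.13 (SE 0.02, limma adjusted p = 0.0011). That call was lost without the intensity trend (adjusted p = 0.0513). Its HD minus CK difference of -0.02 was called higher under other scalings. It was 0.11 under TPM (limma adjusted p = 0.00284), 0.066 under total reads (adjusted p = 0.0417) and 0.27 after quantile normalization (adjusted p = 2.48e-06).

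The remaining groups were smaller. MD and HD were both higher than CK, with MD the higher, in 4 members led by Gb_06050 (3.54%, against 1.35% of all tested genes). After quantile normalization its HD minus MD difference, -0.22 with the authors' scaling, turned to 0.55 and its MD minus CK difference was 0.00. Those values follow rank alone: Gb_06050 had rank 2 in CK and MD and rank 1 in HD. Another 4 members, led by Gb_30778, were lowest in MD and highest in HD (3.54%, against 1.43%). A further 3 were higher in HD than in CK and MD (2.65%, against 8.93%), 2 were lower in MD than in CK alone (1.77%, against 1.68%) and 2 lower in HD than in CK alone (1.77%, against 3.43%). Gb_14539 was the only member higher in MD and HD than in CK with no call between HD and MD (0.885%, against 5.84%), with a HD minus MD difference of 0.11 (SE 0.08, limma adjusted p = 0.293). HD was called higher than MD under scaling to TPM (0.23, adjusted p = 0.0359), after quantile normalization (0.31, adjusted p = 0.0242), with limma-voom (0.12, adjusted p = 0.0179) and without the libraries numbered 3 (0.088, adjusted p = 0.00331). Gb_04149, the only member called higher in HD than in CK and in neither other comparison (0.885%, against 4.19%), is named after its values were seen (log2 fold change 0.14, SE 0.03, limma, Benjamini-Hochberg adjusted p = 0.00238).

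**Figure D4:**
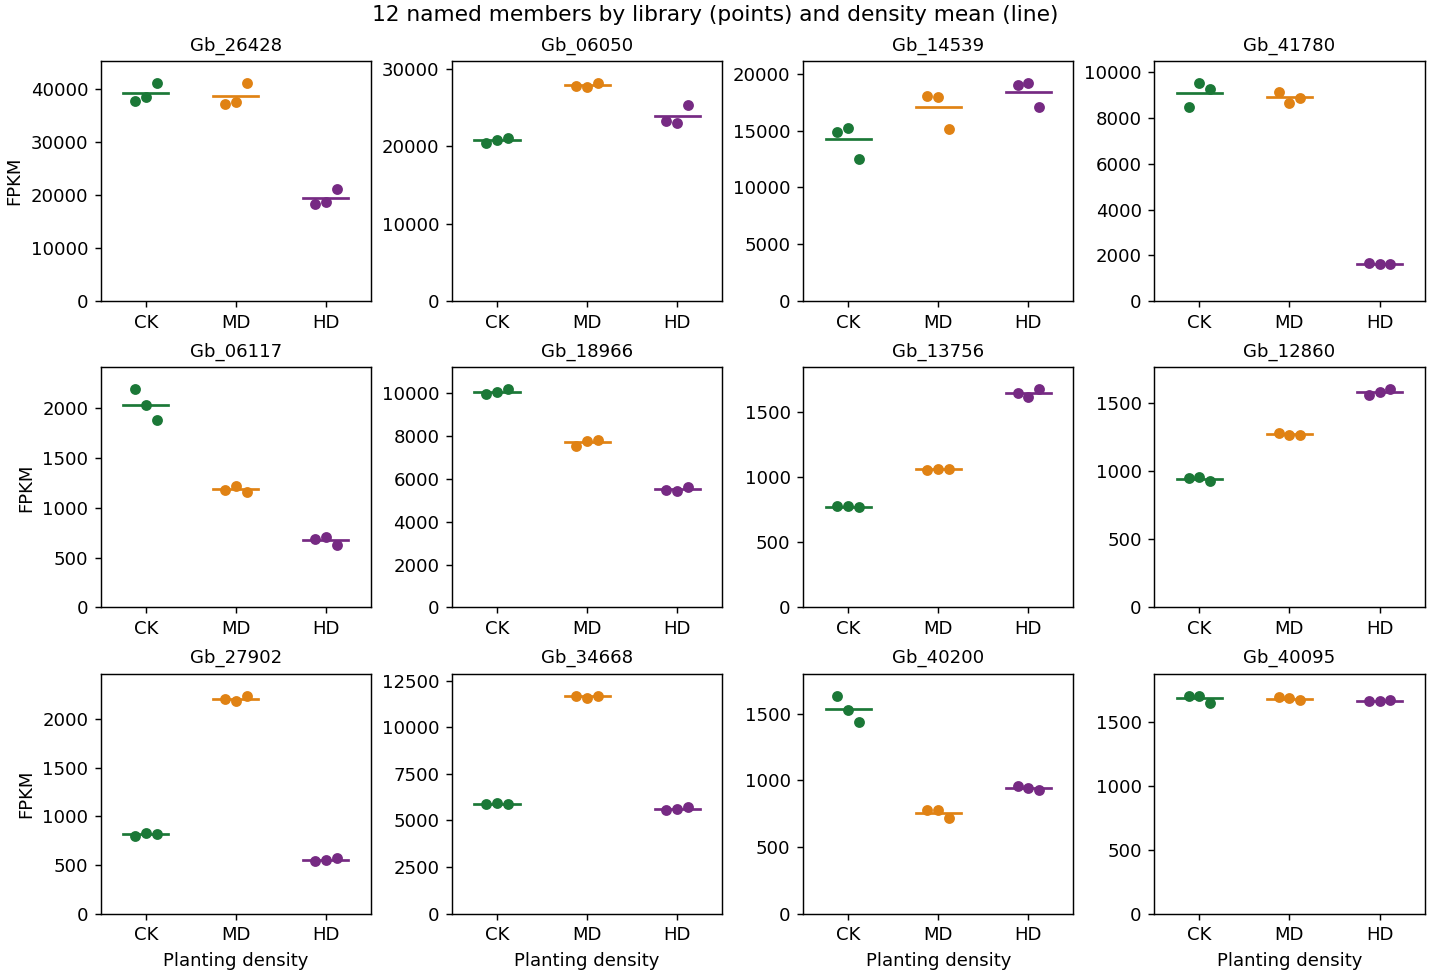
FPKM of 12 named members in each library (points, libraries 1 to 3 side by side) with the mean of each density (lines); every panel starts at 0 and has its own FPKM scale. Gb_41780 and Gb_26428 are lowest in HD, Gb_06117 and Gb_18966 step down and Gb_13756 and Gb_12860 step up with density, Gb_27902 and Gb_34668 peak in MD, Gb_40200 is lowest in MD and Gb_40095 is level. These orders were read with the authors' scaling.

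Whether the log2 level changed by the same amount at each doubling was tested by the distance of MD to the midpoint of CK and HD. A departure was called for 80 members (70.8%), against 33.3% of all tested genes. The median absolute departure was 0.159 in members and 0.156 in all tested genes, with median standard errors of 0.024 and 0.084. MD lay above the midpoint in 44 of them, against 17.5% of all tested genes, and below it in 36, against 15.7%. The departure of Gb_41780 was 1.21 (SE 0.03, limma adjusted p = 1.5e-09), as its fall lay between MD and HD. That of Gb_34668 was 1.01 (SE 0.02, limma adjusted p = 3.54e-11). For Gb_06117, with nearly equal steps, it was 0.01 (SE 0.05, limma adjusted p = 0.836), and for Gb_04160 it was 0.02 (SE 0.02, limma adjusted p = 0.629), both without a call.

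With the authors' scaling, the steadiest members by the largest of the 3 absolute log2 fold changes were Gb_21826, Gb_40095 and Gb_00162. Gb_21826 had 2719, 2624 and 2392 FPKM in CK, 2635, 2646 and 2508 FPKM in MD and 2608, 2649 and 2454 FPKM in HD. Its library 3 was the lowest in each density, and the spread within a density exceeded the differences between densities. Gb_40095 had 1706, 1705 and 1652 FPKM in CK, 1692, 1685 and 1671 FPKM in MD and 1663, 1664 and 1673 FPKM in HD. Gb_00162 had 2807, 2799 and 2817 FPKM in CK, 2830.0, 2787 and 2775 FPKM in MD and 2847, 2919.9 and 2783 FPKM in HD. None of the 3 was called in any pairwise comparison with the authors' scaling, but each was under other scalings. HD minus CK of Gb_00162 was called at 0.15 under scaling to TPM (limma adjusted p = 0.000216), which raised the median of all genes to 0.115. The same difference was called at 0.11 under total reads (limma adjusted p = 0.00147) and at 0.29 after quantile normalization (limma adjusted p = 1.34e-05). HD minus CK of Gb_40095, -0.02 with the authors' scaling, turned to 0.11 under TPM (adjusted p = 0.000566), 0.071 under total reads (adjusted p = 0.00967) and 0.15 after quantile normalization (adjusted p = 0.000516), all called. That of Gb_21826, -0.0032 with the authors' scaling, turned to 0.13 under TPM (adjusted p = 0.0292) and 0.24 after quantile normalization (adjusted p = 0.000613), both called.

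Spread within a density was low in most members. Median coefficients of variation were 2.60% (CK), 1.60% (MD) and 1.98% (HD), against 7.59%, 7.74% and 7.75% over all tested genes in the same order. Poisson counting of the recovered reads alone would give 0.557% to 0.626% in a typical member. More than 10% was reached by 6 members in CK, 1 in MD and 2 in HD. Gb_00380 and Gb_41807 were singled out here after their values were seen. Gb_00380 had 12103, 9211 and 4439 FPKM in CK, 9263, 9220.1 and 8362 FPKM in MD and 6525, 6539 and 2699.8 FPKM in HD. Library 3 was the lowest in every density. No comparison of Gb_00380 was called in the fit over all libraries, with a HD minus CK log2 difference of -0.70 (SE 0.37, limma adjusted p = 0.14). Without the libraries numbered 3 that difference was -0.69 and called (limma adjusted p = 0.0010), without CK library 3 alone it was -1.12 (adjusted p = 0.0159), and without HD library 3 alone it was -0.28 and not called (adjusted p = 0.496). The HD minus MD difference of -0.88 (SE 0.37, limma adjusted p = 0.0811) was called without CK library 3 (adjusted p = 0.0317) and without the libraries numbered 3 (-0.50, adjusted p = 0.00671). With all 9 libraries, limma-voom on recovered reads called HD lower than CK (-0.65, adjusted p = 0.00628) and lower than MD (-0.84, adjusted p = 0.000754), and the fit of HD and MD alone called HD lower than MD (adjusted p = 0.0392). What sets the libraries numbered 3 apart was not tested.

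**Figure D5:**
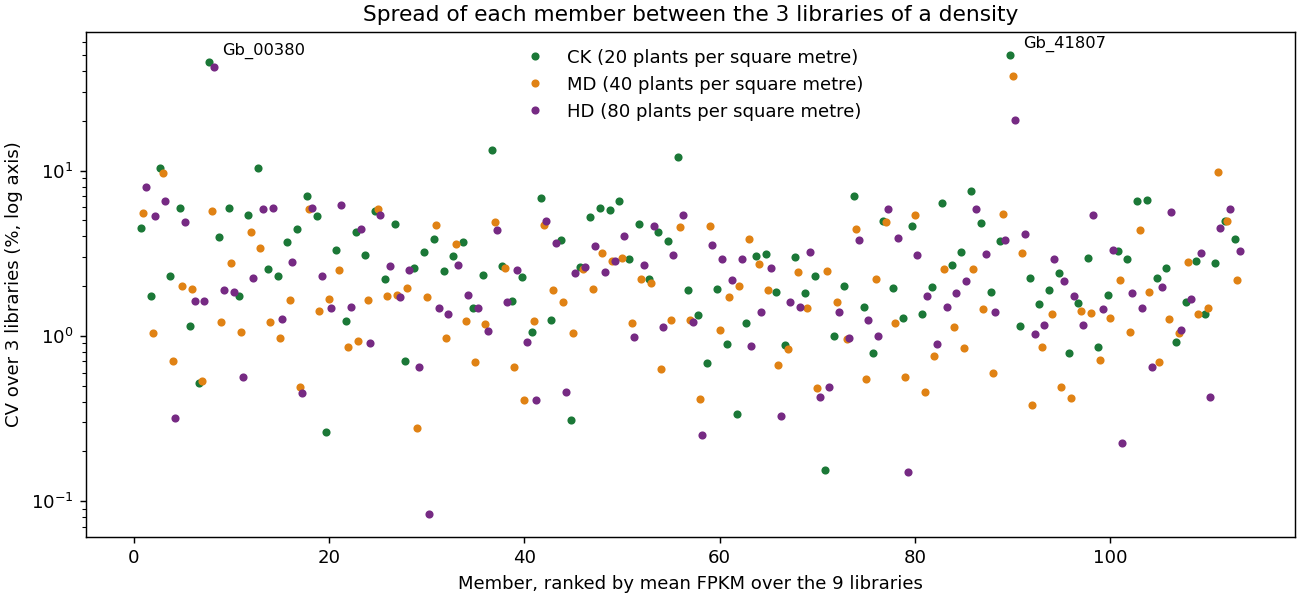
Coefficient of variation of FPKM over the 3 libraries of a density (vertical axis, percent, logarithmic) for each of the 113 members, ordered by mean level (horizontal axis), with 1 point per density. The medians are 2.60% in CK, 1.60% in MD and 1.98% in HD; Gb_00380 reaches 42.1% in HD, and Gb_41807 reaches 49.9% in CK and 37.5% in MD.

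Level and gene length were set beside the differences as descriptions. In HD against CK, with the authors' scaling, members ranked 1 to 10 had a median log2 fold change of -0.57, with 7 called lower and 2 higher. The median was -0.19 for ranks 11 to 25, -0.24 for ranks 26 to 50 and -0.18 for ranks 51 to 113. Below the threshold, 126 genes with means of 500 to 1000 FPKM had a median of -0.06, with 56 lower and 41 higher, and 1423 genes with means of 100 to 500 FPKM had a median of -0.10.

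Recovered lengths of the members had a median of 723 nt (quartiles 522 and 1073 nt), against 1152 nt over all tested genes, and FPKM divides by length, so short genes reach a given FPKM with fewer reads. Lengths were multiples of 3 in 99 of the 113 members, as in coding lengths without untranslated regions. The median HD minus CK log2 fold change was -0.34 in the 18 members under 400 nt and -0.08 in the 39 members of 900 nt or more, against 0.03 and -0.00 over all tested genes of these lengths. Whether length has a part in the differences between densities was not tested.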

How the data were processed

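Leaf RNA of Ginkgo biloba was sequenced in 9 libraries, 3 per planting density, grouped by the treatment label. Per the file headers, the table that the authors deposited holds FPKM for every gene in every library. CASAVA 1.8, TopHat2 and RSEM are named, with no role stated, in the submitters' processing notes. Genome build and annotation: not given in the sources used here. The 9 value columns matched 1 sample title each, and 0 other per-sample columns were present. Members, lists and tests were chosen with earlier results of these data known.

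With R 4.3.3, limma 3.58.1 was run with an intensity trend on log2(FPKM + 1) of all 9 libraries, for 19854 genes that reached 1 FPKM in 3 or more libraries. Benjamini-Hochberg adjustment ran over all of these genes in each contrast, and log2(FPKM + 1) is the scale of every fold change. Sums and shares were compared by exact permutation tests. Whole reads and gene lengths were recovered from the steps of FPKM between libraries: within 0.001 reads, 100% of the 21602 genes above 0 in every library and all 113 members came out whole, against 0 of 2000 genes whose values were moved at random. Library sizes behind the authors' FPKM were 0.971 to 0.987 times the recovered reads in CK, 0.998 to 1.005 in MD and 1.037 to 1.041 in HD, so the authors' scaling differs from total reads in the direction of the groups. The fit was also run on simulated reads with the same spread setting for all genes. These reads held neither the deviation of libraries numbered 3 nor library sizes that differ by group, so the run says nothing about those.

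Named members are the 5 of highest mean, the 2 largest rises and falls called in each comparison and in the departure of MD from the midpoint, the most abundant member of each pattern of calls with at least 5 members, and the 3 steadiest; others are named where the text says so. Gene lists of photosynthesis, flavonoid and terpenoid synthesis and other functions could not be matched, as 0 member identifiers were paired with a name. Replicate numbers were not treated as pairs, as no label says that they mark a shared tree or batch. Over all tested genes the deviations of same-numbered libraries correlated at -0.00692 to 0.0734, and those numbered 3 at 0.0568 to 0.0734. Differently numbered libraries of different densities correlated at -0.0522 to 0.0430. Over all 113 members same-numbered libraries correlated at -0.344 to 0.769 and the others at -0.885 to 0.847. Over the 111 without the 2 of widest spread the ranges were 0.189 to 0.699 and -0.551 to 0.484. Alternatives were other pseudocounts, filters, scalings and member thresholds, limma-voom on recovered reads, a replicate block, pairs of groups fitted alone and libraries left out.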

Additional observations from a re-analysis of the deposited data

Results flagged for a closer look

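One contrast, MD minus the midpoint of CK and HD, asks whether the effect of the second doubling of density differs from that of the first. It was called in 80 members (limma, adjusted p under 0.05), against 33.3% of all tested genes, which is a tested difference between the 2 effects. The median absolute departure was nearly the same in members (0.159) and in all tested genes (0.156), while the median standard error was smaller in members. The named members with the largest departures were Gb_27902, at 1.71 on the log2 scale, and Gb_13268, at 1.23, both highest in MD. Gb_41807, at -1.97, and Gb_40200, at -0.67, were lowest in MD. All 4 lay below 1000 FPKM in at least 1 density, so their departures are not independent of how the members were chosen. The 3 libraries of a density are too few for a search for single outlying libraries.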

How the results depend on the processing

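Of 470 recomputed counts, medians, sums and shares, 418 were classed as the same, 44 moved and 8 changed sign. For sums that class did not mean close values. The summed FPKM of HD against CK, -17.5%, was in it at -9.71% with TPM, -12.3% with total reads and -0.284% after quantile normalization. Of 1656 recomputed fold changes of named members, 1594 kept their side of the threshold and 21 turned sign with a call in either fit. A further 17 lost a call and 24 gained one. Of the 1594, 47 turned sign with no call in either fit, HD minus CK of Gb_41807 without CK library 3 (0.20) and MD minus CK of Gb_00380 without CK library 3 (-0.24) among them. Where called in either fit, HD minus CK turned under 3 scalings. Under TPM it was 0.13 for Gb_21826, 0.11 for Gb_27252, 0.063 for Gb_34668, 0.045 for Gb_37968 and 0.11 for Gb_40095. After quantile normalization it was 0.11 for Gb_00381, 0.24 for Gb_21826, 0.27 for Gb_27252, 0.26 for Gb_34668, 0.077 for Gb_37968 and 0.15 for Gb_40095. Under total-read scaling it was 0.066 for Gb_27252, 0.022 for Gb_34668, 0.0041 for Gb_37968 and 0.071 for Gb_40095. HD minus MD turned to 0.55 for Gb_06050, 0.17 for Gb_21826 and 0.24 for Gb_38595 after quantile normalization, and to 0.11 for Gb_38595 and 0.10 for Gb_40095 with TPM. MD minus CK of Gb_40095 turned to 0.12 after quantile normalization. The cause was not tested, beyond the fact that quantile normalization gives all libraries the same values, so that a value follows its rank alone. The members' median log2 fold change in HD minus CK was -0.064 with TPM, -0.11 with total reads and 0.012 after quantile normalization. In HD minus MD it was -0.038, -0.10 and 0.024 in the same order, and -0.12 over members with at least 1000 FPKM in each density. In MD minus CK it was -0.042 with total reads and -0.0010 after quantile normalization. Higher members in HD minus CK numbered 37, 31 and 44 under these scalings, against 20; quantile normalization gave 37 lower members in HD minus CK, and 50 higher and 38 lower in HD minus MD. The summed FPKM of MD against CK turned to 0.579% with TPM, 2.22% with total reads, 0.0363% after quantile normalization and 0.521% over members of at least 2000 FPKM. Such a sum is nearly fixed by quantile normalization.

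A lower threshold of 500 FPKM took in 239 genes and a higher one of 2000 FPKM 59, so counts moved with the number of genes. With 500 FPKM, MD minus CK had 181 calls (78 higher, 103 lower; median -0.034), HD minus CK 190 (61 and 129; -0.12) and HD minus MD 178 (63 and 115; -0.075), the F test 223 and the departure of MD 179. With 2000 FPKM, MD minus CK had 41 calls (15 and 26; -0.057), HD minus CK 48 (7 and 41; -0.24) and HD minus MD 46 (9 and 37; -0.22), the F test 55 and the departure of MD 39. With 1 library left out in turn, calls in MD minus CK ranged over 78 to 89 (30 to 34 higher, 48 to 55 lower; median -0.082 to -0.063), in HD minus CK over 88 to 94 (19 to 22 higher, 69 to 73 lower; median -0.22 to -0.19) and in HD minus MD over 87 to 94 (28 to 30 higher, 59 to 64 lower; median -0.16 to -0.13). The F test then called 106 to 109 members and the departure of MD 70 to 83. The read share differed by 0.312 to 0.697 points in MD minus CK, by -1.93 to -1.55 in HD minus CK and by -2.34 to -2.15 in HD minus MD. The summed FPKM differed by -1.39% to 0.309% for MD against CK, -18.4% to -17.0% for HD against CK and -17.4% to -17.1% for HD against MD. A replicate block gave 36 higher and 55 lower members in MD minus CK, 21 and 75 in HD minus CK and 31 and 66 in HD minus MD, with 110 calls by the F test and 89 departures. It called HD minus CK of Gb_00380 (adjusted p = 0.0231) and Gb_00391 (adjusted p = 0.0322), and HD minus MD of Gb_00380 (adjusted p = 0.0101) and Gb_14539 (adjusted p = 0.00223). The numbers are only a hint of pairing: 7 of 9 libraries deviated most like libraries of their own number over all tested genes and over the 113 members, and 4 of 9 over the 111 without Gb_00380 and Gb_41807, where same-numbered libraries correlated at 0.289 to 0.311 (number 1), 0.189 to 0.431 (number 2) and 0.619 to 0.699 (number 3). Chosen after seeing the data, a fit without the intensity trend called 25 higher and 40 lower members in MD minus CK, 19 and 62 in HD minus CK and 23 and 55 in HD minus MD. limma-voom on recovered reads called 40 and 58, 22 and 78, and 32 and 69 in the same order. The F test and the departure of MD have no value where pairs of groups were fitted alone. With 3 libraries per density no exact test could fall below 0.1. Depth limits little in a typical member, as the median counting error of a density was 0.557% to 0.626%. It limits more in members with fewer reads.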
